A study of Mus musculus with 5 samples.

Results

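The family examined here is the epidermal growth factor (EGF) receptor family. It was described by 9 genes chosen by name out of the 31053 genes counted in every library, 6 for ligands and 3 for receptors. The ligand genes were Ereg (epiregulin), Areg (amphiregulin), Hbegf (heparin-binding EGF-like growth factor), Tgfa (transforming growth factor alpha), Btc (betacellulin) and Nrg1 (neuregulin 1). The receptor genes were Egfr, Erbb2 and Erbb3. The data were single-cell RNA libraries of non-parenchymal liver cells, freed by perfusion with pronase and collagenase and sorted by flow cytometry. One sorting signal was the autofluorescence of stored vitamin A (VitA), a feature of hepatic stellate cells, the pericytes of the liver sinusoid. The other was the green protein of the Rosa26mTmG reporter after recombination by Cre under the Col1a1 promoter, which marks cells in which that collagen promoter was or had been active. All mice were male and carried Rosa26mTmG and Col1a1-Cre on a C57BL/6J background.

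In the DEN+WAD group, 10 mg/kg of the carcinogen diethylnitrosamine (DEN) was injected at 2 weeks of age, and a liquid Western alcohol diet (WAD) with 3.5% v/v ethanol was fed for 5 months from the age of 6 weeks. Controls were injected with saline at 2 weeks of age and fed chow for 5 months from the age of 6 weeks. DEN+WAD livers gave a VitA+Col1a1+ library of 10481 cells, a VitA-Col1a1+ library of 2729 cells and a library labelled VitA-Col1a1- of 9870 cells. Chow livers gave a VitA+Col1a1+ library of 259 cells and a VitA-Col1a1+ library of 668 cells. Each group was 1 library, and the sources used here do not say how many mice went into each, so no difference below has a replicate check and no p-value was made. Animal, library and group cannot be told apart. Intervals are 95% intervals from the counts and cover counting error only.

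The libraries held between 6145748 and 149936344 unique molecular identifiers (UMIs), and the median per cell ranged from 9105.5 in the library labelled VitA-Col1a1- to 24077 in VitA+Col1a1+ chow. Levels are given as counts per 1e+06 UMIs of the library or of the cell class (CPM), so 3 UMIs correspond to 0.0200 CPM in the deepest library and to 0.488 CPM in VitA+Col1a1+ chow. Between 0.284% and 1.05% of the barcodes of a library also occurred in another. The library labelled VitA-Col1a1- went against its label in its RNA. Of its cells, 52.6% were mesenchymal by marker RNA, and these held Col1a1 at 1892 CPM. Mesenchymal cells held it at 1123 CPM in VitA-Col1a1+ DEN+WAD, 1921 CPM in VitA-Col1a1+ chow and 308 CPM in VitA+Col1a1+ DEN+WAD. It is therefore called by its label throughout.

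EGF family ligands are made as membrane proteins and are released by shedding proteases, after which they act on the same or on neighbouring cells. Epiregulin, amphiregulin, HB-EGF, TGF-alpha and betacellulin bind the EGF receptor, some of them ERBB4 as well, and neuregulin 1 binds ERBB3 and ERBB4. ERBB2 has no known ligand and works as the partner of the other receptors, and ERBB3 has little kinase activity of its own. In liver the family is known for its part in regeneration, in which hepatocytes are a main carrier of the EGF receptor.

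Ereg, Areg and Btc lie together on chromosome 5 of the mouse genome (GRCm38, GENCODE M21). Ereg (ENSMUSG00000029377) is at chr5:91074622-91093646 on the plus strand, Areg (ENSMUSG00000029378) at chr5:91139599-91148432 on the plus strand and Btc (ENSMUSG00000082361) at chr5:91357261-91402994 on the minus strand. With Epgn, which encodes epigen, they make up all 4 protein-coding genes within 376 kb. Of the ligand genes elsewhere, Tgfa (ENSMUSG00000029999) is at chr6:86195223-86275719 and Nrg1 (ENSMUSG00000062991) at chr8:31814551-32884029. Hbegf is ENSMUSG00000024486. The receptor genes Egfr (ENSMUSG00000020122) and Erbb2 (ENSMUSG00000062312) are both on chromosome 11, at chr11:16752203-16918158 and chr11:98412470-98437716, and Erbb3 (ENSMUSG00000018166) is at chr10:128567523-128589652. Ereg, Nrg1, Egfr and Erbb2 each overlap another counted gene on the opposite strand (Gm19610, Gm26578, Egfros and Mien1). The paper gives default parameters for the Cell Ranger count step and does not name the strand. Whether the levels of these 4 genes share reads with their overlapping partner was not tested.

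The promoters of Areg and Btc are shown because these neighbours of Ereg in the cluster were higher in mesenchymal cells that had an Ereg UMI, in some or most of the libraries. Both are RefSeq sequences of GRCm38.p6, from 250 bases before to 50 bases after the start site, written 5′ to 3′ on the strand of the gene (Areg chr5:91139349-91139648, plus; Btc chr5:91402945-91403244, minus). Capitals mark matches to TATAAA (the TATA box), TGACGTCA (the cAMP response element) and GGGCGG (the GC box, which reads CCGCCC on the other strand).
Areg: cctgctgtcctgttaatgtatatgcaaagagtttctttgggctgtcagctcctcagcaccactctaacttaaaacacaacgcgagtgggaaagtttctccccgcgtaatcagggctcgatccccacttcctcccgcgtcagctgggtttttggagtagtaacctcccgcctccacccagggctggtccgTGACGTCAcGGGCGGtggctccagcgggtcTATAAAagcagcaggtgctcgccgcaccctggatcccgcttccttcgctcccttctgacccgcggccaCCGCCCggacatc
Btc: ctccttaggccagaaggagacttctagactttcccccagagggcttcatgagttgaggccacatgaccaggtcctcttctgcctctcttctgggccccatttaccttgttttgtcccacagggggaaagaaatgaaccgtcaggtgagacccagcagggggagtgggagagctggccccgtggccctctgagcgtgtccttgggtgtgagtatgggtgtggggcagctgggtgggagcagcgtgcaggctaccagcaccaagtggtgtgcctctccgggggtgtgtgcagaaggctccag
The Areg promoter held TATAAA at position -31 and TGACGTCA at position -61 from the start site, and 2 matches to GGGCGG. Of all 32851 promoters of the same length, 13.6% held TATAAA, 1.79% held TGACGTCA and 35.7% held GGGCGG on either strand. The Btc promoter held none of these 3 motifs and no AP-1 site (TGANTCA, found in 7.81% of promoters). G and C made up 59.3% of the Areg and 60.3% of the Btc sequence, against a median of 52.7%. A match describes letters and is not evidence of binding, and promoters were found for 5 of the 9 genes.

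Over whole libraries, the ligand transcripts formed 3 patterns. Ereg was found at 23.4 CPM in VitA+Col1a1+ DEN+WAD, 37.1 CPM in VitA-Col1a1+ DEN+WAD, 20.7 CPM in VitA+Col1a1+ chow, 42.1 CPM in VitA-Col1a1+ chow and 36.0 CPM in the library labelled VitA-Col1a1-. Both VitA+ libraries were thus lower than the 3 VitA- libraries, with or without DEN+WAD. Hbegf was at 8.89, 42.7, 14.5, 35.8 and 59.9 CPM in the same order of libraries, again low in both VitA+ libraries. Tgfa was at 4.40, 7.54, 7.16, 4.33 and 13.5 CPM, and Nrg1 at 0.867, 2.06, 1.30, 0.867 and 4.15 CPM. Both were highest in the library labelled VitA-Col1a1- and showed no common order of the gates. Btc was at 2.88, 3.88, 1.46, 4.13 and 6.68 CPM. Areg stayed under 1 CPM in all 4 Col1a1+ libraries, at 0.740, 0.945, 0.488 and 0.267 CPM, and was at 4.57 CPM in the library labelled VitA-Col1a1-. In VitA+Col1a1+ chow, the Areg level rested on 3 UMIs and that of Nrg1 on 8.

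Among the receptors, Egfr was at 25.3 CPM in VitA+Col1a1+ DEN+WAD, 46.1 CPM in VitA-Col1a1+ DEN+WAD, 31.1 CPM in VitA+Col1a1+ chow, 86.8 CPM in VitA-Col1a1+ chow and 35.6 CPM in the library labelled VitA-Col1a1-. VitA-Col1a1+ chow stood highest, with an interval from 82.2 to 91.7 CPM that no other library reached. Erbb2 was at 6.89, 7.96, 12.9, 12.3 and 8.66 CPM, higher in both chow libraries than in the 3 DEN+WAD libraries. Erbb3 was nearly absent from the Col1a1+ libraries, at 0.233, 0.735, 0 and 0.800 CPM, and was at 3.06 CPM in the library labelled VitA-Col1a1-. The 0 UMIs in VitA+Col1a1+ chow allow a level of up to 0.600 CPM.

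**Figure D1:**
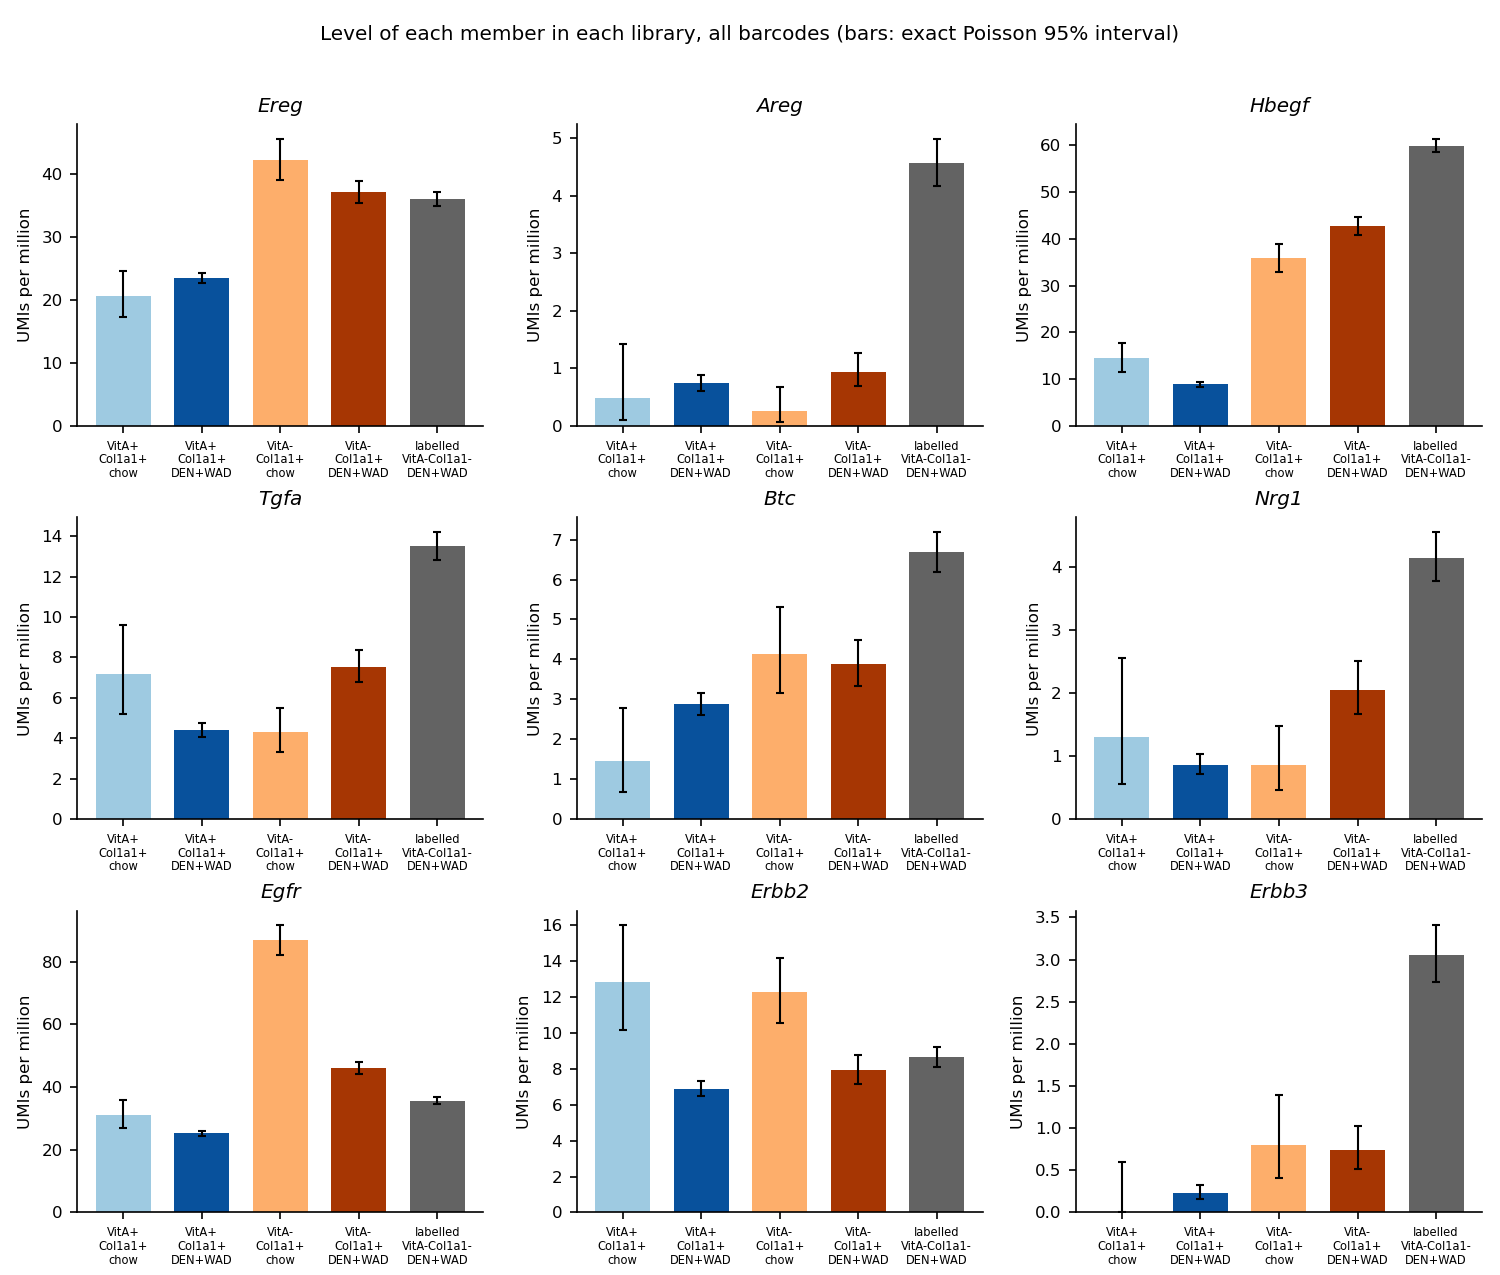
Level of each of the 9 genes in each of the 5 libraries, in CPM, with exact 95% counting intervals as bars. Egfr reaches 86.8 CPM in VitA-Col1a1+ chow, Areg stays under 1 CPM in the 4 Col1a1+ libraries, and Ereg is lower in both VitA+ libraries than in the other 3.

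The levels were next divided by cell class within the library labelled VitA-Col1a1-, which held enough cells of 4 kinds. A cell was called mesenchymal when Dcn, Col3a1 and Colec11 together made up at least 20 of every 10000 UMIs, and the other cells were classed by a UMI of Pecam1 (an endothelial gene), C1qa (a macrophage gene) or Epcam (an epithelial gene). This gave 5196 mesenchymal, 1863 Pecam1-positive, 915 C1qa-positive and 87 Epcam-positive cells. Of the cells not called mesenchymal, 918 carried more than 1 of these 3 genes and 891 carried none. The classes carried the marker RNA of their names. Lrat, the retinol esterifying enzyme of stellate cells, was at 787 CPM in mesenchymal cells, Cdh5 at 823 CPM in Pecam1-positive cells, Clec4f, a Kupffer cell gene, at 1969 CPM in C1qa-positive cells and Krt19, a bile duct keratin, at 149 CPM in Epcam-positive cells. Hepatocyte RNA was not spread evenly among them, with albumin (Alb) at 464 CPM in mesenchymal, 6177 CPM in C1qa-positive and 13784 CPM in Epcam-positive cells. The summed hepatocyte list was 1131 CPM in mesenchymal, 985 CPM in Pecam1-positive, 13788 CPM in C1qa-positive and 33071 CPM in Epcam-positive cells, and its part in the levels below was not tested.

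Mesenchymal cells carried nearly all of Ereg. Its level was 63.9 CPM in mesenchymal cells, 0.741 CPM in Pecam1-positive cells, 0.427 CPM in C1qa-positive cells and 0 in Epcam-positive cells. Mesenchymal cells stood 86.3-fold above the next class (48.2 to 173), and the 3 lower classes did not differ beyond their intervals. Of all Ereg UMIs of the library, 99.2% came from mesenchymal cells, which held 55.8% of all UMIs. By cell, 31.6% of mesenchymal cells (median 10920.5 UMIs) had an Ereg UMI against 0.546% of C1qa-positive cells (median 8843 UMIs). After each cell was thinned to 2000 UMIs, the shares were 10.3% (464 of 4500 cells) and 0 of 671 cells.

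Egfr was the other gene with its highest level among the 4 classes in mesenchymal cells. It was at 55.9 CPM there, at 22.1 CPM in Epcam-positive, 10.3 CPM in C1qa-positive and 2.22 CPM in Pecam1-positive cells, and each step of this order exceeded its counting interval. The ratio of mesenchymal to Epcam-positive cells was 2.53 (1.77 to 3.75). Without the 5% of barcodes with the most UMIs, Egfr in C1qa-positive cells was at 2.22 CPM, no higher than the 2.23 CPM of Pecam1-positive cells, so that step rested on the deepest barcodes. Mesenchymal cells held 87.5% of the Egfr UMIs. An Egfr UMI was found in 39.0% of mesenchymal cells against 1.61% of Pecam1-positive cells (median 7900 UMIs), or in 10.6% against 0.332% after thinning. Among the 4 classes, transcripts of the receptor and of its ligand Ereg were thus both highest in mesenchymal cells. These were 2 of the 9 members, against 19.6% of all genes compared.

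Hbegf was found in every class and was lowest in mesenchymal cells. Its level was 19.7 CPM in mesenchymal, 64.9 CPM in Pecam1-positive, 143 CPM in C1qa-positive and 216 CPM in Epcam-positive cells. Each step exceeded its interval, with ratios of 3.30 (3.03 to 3.60), 2.20 (2.03 to 2.38) and 1.51 (1.33 to 1.71) from the lowest class upward. Without the 5% of barcodes with the most UMIs, the levels in this order were 13.5, 65.0, 142 and 156 CPM. The size of the highest step thus rested in part on the deepest barcodes. After thinning, 2.18% of mesenchymal, 10.7% of Pecam1-positive, 16.4% of C1qa-positive and 30.0% of Epcam-positive cells had an Hbegf UMI, in the same order as the levels, against 10.6%, 26.0%, 36.1% and 51.7% at full depth. A single mesenchymal cell held 170 of the 1159 Hbegf UMIs of its class, out of 6332 in this library.

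Tgfa and Nrg1 were both low in mesenchymal cells. Tgfa was at 4.93 CPM in mesenchymal, 38.2 CPM in Pecam1-positive, 9.64 CPM in C1qa-positive and 47.9 CPM in Epcam-positive cells. The 2 highest classes did not differ beyond the interval of their ratio (1.25, 0.955 to 1.62), and Pecam1-positive cells were 3.96-fold above C1qa-positive cells (3.23 to 4.89). A Tgfa UMI was found in 4.66% of mesenchymal and 23.8% of Pecam1-positive cells at full depth, and in 0.956% and 7.70% after thinning. Nrg1 was at 0.882, 9.96, 4.61 and 15.5 CPM in the same classes. Again the Epcam-positive and Pecam1-positive cells did not differ beyond the interval (1.55, 0.934 to 2.46), and mesenchymal cells were lowest. Without the 5% of barcodes with the most UMIs, however, Tgfa in C1qa-positive cells was at 1.63 CPM, under the 4.57 CPM of mesenchymal cells, and with at least 2 C1qa UMIs per cell it was at 2.55 CPM. Nrg1 without those barcodes was at 9.72 CPM in Pecam1-positive and 6.83 CPM in Epcam-positive cells, and at 0.887 CPM in C1qa-positive against 0.674 CPM in mesenchymal cells.

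Btc and Areg, which flank the same stretch of chromosome 5 as Ereg, were not distributed as Ereg was. Btc was at 9.0 CPM in mesenchymal, 0.337 CPM in Pecam1-positive, 4.44 CPM in C1qa-positive and 42.0 CPM in Epcam-positive cells. Epcam-positive cells were 4.67-fold above mesenchymal cells (3.49 to 6.14), which were 2.03-fold above C1qa-positive cells (1.52 to 2.75). Areg was at 3.24, 0.471, 2.99 and 10.3 CPM in these classes, and mesenchymal and C1qa-positive cells did not differ beyond the interval of their ratio (1.08, 0.753 to 1.60). That likeness rested on few deep barcodes, since without the 5% with the most UMIs Areg was at 2.71 CPM in mesenchymal, 0.296 CPM in C1qa-positive and 0 CPM in Epcam-positive cells, and with at least 2 C1qa UMIs per cell it was at 0.196 CPM. Btc in C1qa-positive cells was likewise at 0.592 CPM without those barcodes. Of the 483 Areg UMIs, 217 came from cells with none of the class genes, which held 5.04% of all UMIs, had a median of 2366 UMIs and carried the hepatocyte list at a sum of 57206 CPM. In these cells Areg was at 40.7 CPM. By finer lists, 634 of them had hepatocyte genes (median 1773 UMIs) and held Areg at 48.9 CPM, while 100 cells with T or NK cell genes held it at 10.5 CPM from 5 UMIs in 1 cell.

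Erbb2 and Erbb3, which encode partners of the EGF receptor, differed in their distribution. Erbb2 was at 10.1 CPM in mesenchymal, 15.1 CPM in Pecam1-positive, 0.256 CPM in C1qa-positive and 3.68 CPM in Epcam-positive cells. Pecam1-positive cells were 1.5-fold above mesenchymal cells (1.28 to 1.75), which were 2.74-fold above Epcam-positive cells (1.17 to 8.48). The C1qa-positive level rested on 3 UMIs, and the ratio of Epcam-positive to C1qa-positive cells was 14.4 with an interval from 2.80 to 92.7. Erbb3 was at 0.678, 0.673, 7.08 and 31.7 CPM. Here Epcam-positive cells were 4.47-fold above C1qa-positive cells (3.02 to 6.54), and mesenchymal and Pecam1-positive cells were lowest and did not differ beyond the interval. The hepatocyte-list cells, which carry no class gene, held Erbb3 at 24.0 CPM. They held Egfr at 57.0 CPM, against 55.9 CPM in mesenchymal cells.

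Set against Pecam1-positive cells, 4 of the 8 members with a mean of at least 1 CPM were at least 2-fold higher in mesenchymal cells (Ereg, Areg, Btc and Egfr, background 17.0% of genes) and 3 at least 2-fold lower (background 15.2%). Against C1qa-positive cells, 4 of 9 were at least 2-fold higher (Ereg, Btc, Egfr and Erbb2, background 28.1%) and 3 at least 2-fold lower (background 17.2%). Against Epcam-positive cells, 3 of 9 were at least 2-fold higher (Ereg, Egfr and Erbb2, background 18.6%) and 6 at least 2-fold lower (background 22.8%).

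Over the 9 members, 6 were highest in Epcam-positive cells (34.9% of all genes), 1 in Pecam1-positive cells (30.8%) and 0 in C1qa-positive cells (14.7%). Without the 5% of barcodes with the most UMIs, Areg was highest in mesenchymal and Nrg1 in Pecam1-positive cells, which left 4 highest in Epcam-positive cells, and Areg was highest in mesenchymal cells as a mean over cells too. Erbb2 was highest in mesenchymal cells, at 10.1 against 10.09 CPM, when every Pecam1-positive cell was counted whatever else it held. With 87 cells the Epcam-positive class was the smallest, and its hepatocyte RNA stands beside each of these 6 levels. The plot of levels by cell class shows Ereg and Egfr separating from the other members.

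**Figure D2:**
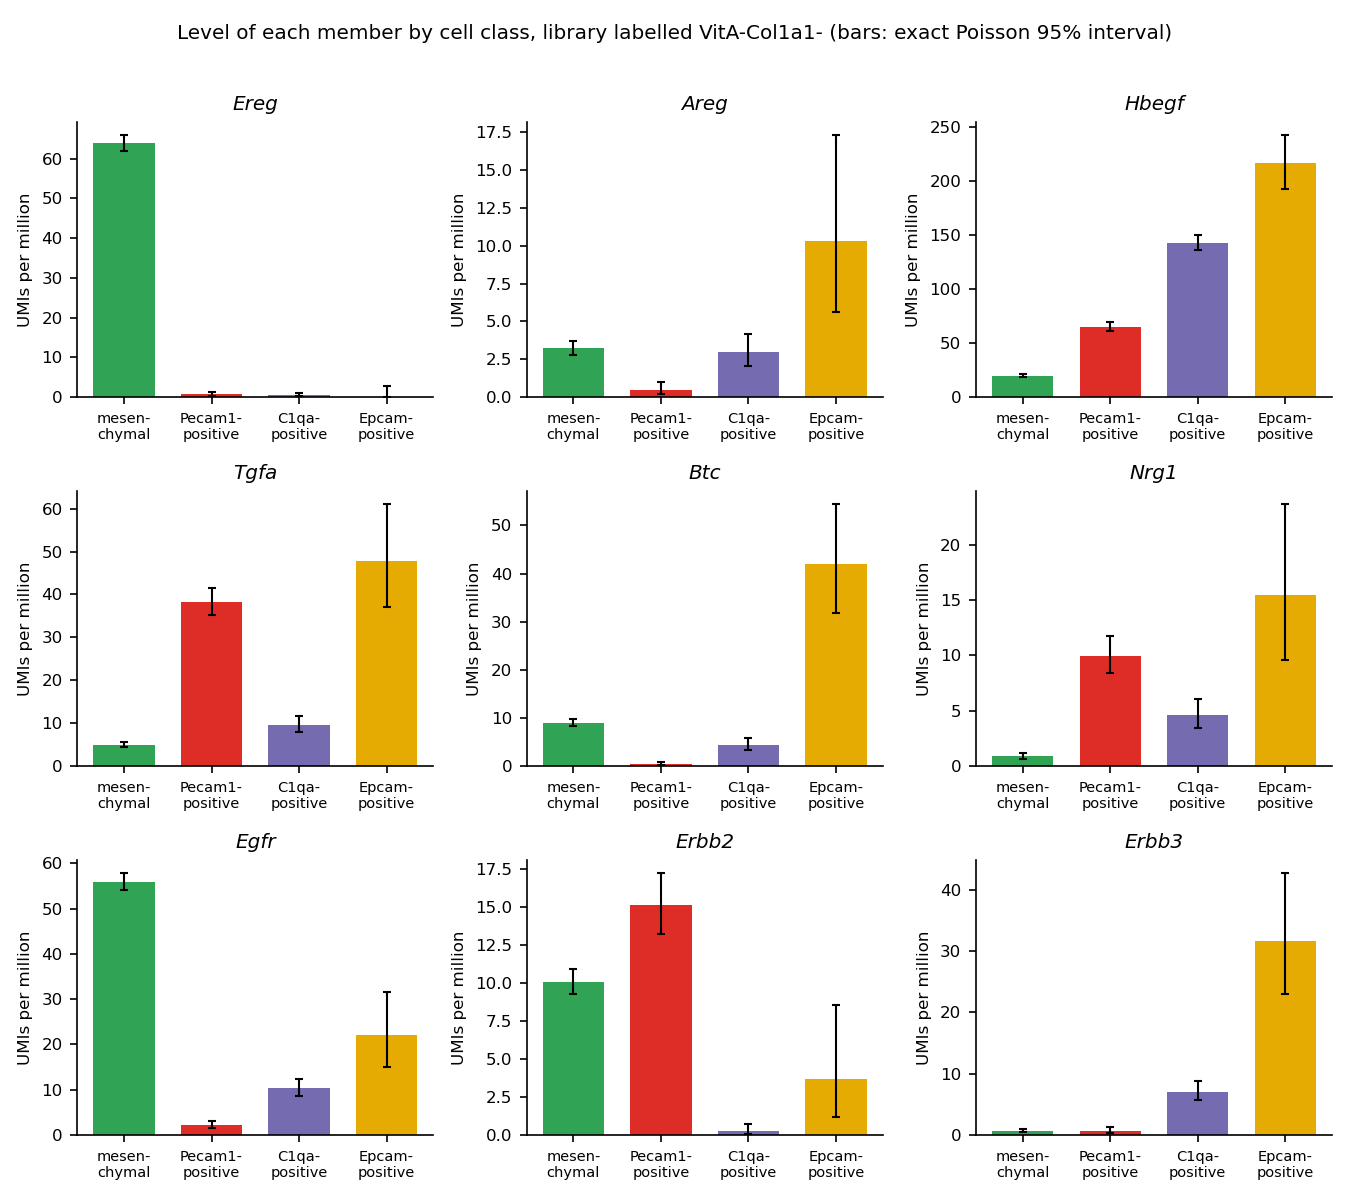
Level of each gene in 4 cell classes of the library labelled VitA-Col1a1-, in CPM, with exact 95% counting intervals as bars. Ereg falls from 63.9 CPM in mesenchymal cells to under 1 CPM in the other classes, while Hbegf rises from 19.7 to 216 CPM across mesenchymal, Pecam1-positive, C1qa-positive and Epcam-positive cells.

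The same classes in the 4 Col1a1+ libraries gave like orders where cells sufficed. The mesenchymal share was 97.9% in the VitA+ and 81.1% in the VitA- gate with DEN+WAD, and 95.4% and 92.1% in the same gates of chow. Pecam1-positive cells were 1.66% and 15.9% with DEN+WAD and 3.47% and 5.69% in chow, and no cell fell in the C1qa-positive class. Hbegf in Pecam1-positive cells was at 206, 170, 198 and 248 CPM in this order of libraries, against 64.9 CPM in the library labelled VitA-Col1a1-. Ereg in Pecam1-positive cells was at 0, 0.788, 6.19 and 0 CPM, the third of these resting on 1 UMI in 9 cells. Areg and Btc had 0 UMIs in the Pecam1-positive cells of all 4 libraries. Epcam-positive cells numbered 20 and 13 in the DEN+WAD libraries and held Hbegf at 707 and 901 CPM and Erbb3 at 68.1 and 31.8 CPM, the highest of the mesenchymal, Pecam1-positive and Epcam-positive classes there for both genes.

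Within the endothelial class, Nrg1 was set apart by its subtype. Cells were divided by whether genes of continuous endothelium (such as Vwf and Selp) or of sinusoidal endothelium (such as Stab2 and Clec4g) summed higher. In the library labelled VitA-Col1a1-, Nrg1 was at 60.0 CPM in 201 continuous-list cells and 3.37 CPM in 1630 sinusoidal-list cells, a ratio of 17.8 (12.3 to 26.0). The VitA- gate of DEN+WAD gave 167 CPM in 18 cells against 1.16 CPM in 417 cells, and the VitA+ gate 176 CPM in 9 cells against 2.03 CPM, or 3 UMIs, in 165 cells. The direction was thus the same in all 3 DEN+WAD libraries. Tgfa was lower in the continuous-list cells of the library labelled VitA-Col1a1-, at 20.0 against 40.7 CPM (0.492, 0.335 to 0.70), and Hbegf was slightly higher, at 78.8 against 63.5 CPM (1.24, 1.02 to 1.49).

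Among C1qa-positive cells, Hbegf was higher in those with a Clec4f UMI. It was at 184 CPM in 496 cells with Clec4f and at 84.3 CPM in 419 cells without, a ratio of 2.18 (1.95 to 2.44). Tgfa was lower with Clec4f, at 3.19 against 18.9 CPM, as were Nrg1, at 1.30 against 9.34 CPM, and Egfr, at 2.61 against 21.4 CPM (0.122, 0.0696 to 0.203). Areg (0.413, 0.191 to 0.856) and Erbb3 (0.562, 0.354 to 0.885) were lower with Clec4f too. Ereg (1.05, 0.120 to 12.5), Btc (0.598, 0.332 to 1.07) and Erbb2 did not differ beyond their intervals. Albumin RNA was at 2615 CPM in the cells with Clec4f and at 11278 CPM in those without, and its part in these ratios was not tested. The median was 13093 UMIs in cells with Clec4f and 7002 UMIs in those without. Without the 5% of barcodes with the most UMIs, C1qa-positive cells as a whole held Hbegf at 142 CPM. Tgfa was then at 1.63, Nrg1 at 0.887, Egfr at 2.22 and Areg at 0.296 CPM, so their levels rested on the deepest barcodes. The split by Clec4f was not repeated without those barcodes.

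Mesenchymal cells were divided by stellate, portal fibroblast and smooth muscle gene lists. Egfr was higher in portal-fibroblast-list than in stellate-list cells in each of the 4 libraries that held both. The levels were 79.2 against 25.3 CPM in the VitA+ and 76.6 against 44.0 CPM in the VitA- gate with DEN+WAD, 103 against 65.1 CPM in VitA-Col1a1+ chow and 86.1 against 50.2 CPM in the library labelled VitA-Col1a1-. The ratios were 3.13 (2.30 to 4.16), 1.74 (1.60 to 1.90), 1.58 (1.37 to 1.82) and 1.72 (1.58 to 1.86), and each interval lay above 1.

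Ereg had no such common direction. It was at 135 CPM in the 33 portal-fibroblast-list cells of VitA+Col1a1+ DEN+WAD against 23.2 CPM in its 10214 stellate-list cells (5.84, 4.63 to 7.27). The VitA- gate of DEN+WAD had less in portal-fibroblast-list cells, at 36.9 against 46.0 CPM (0.803, 0.718 to 0.897), and in VitA-Col1a1+ chow likewise, at 38.1 against 56.3 CPM (0.677, 0.571 to 0.804). In the library labelled VitA-Col1a1- both were close, at 66.6 and 62.9 CPM (1.06, 0.969 to 1.15). Hbegf was 4.04-fold higher in the portal-fibroblast-list cells of VitA+Col1a1+ DEN+WAD (2.20 to 6.82) but lower in those of VitA-Col1a1+ chow (0.412, 0.327 to 0.519) and of the library labelled VitA-Col1a1- (0.609, 0.499 to 0.739). The 35 smooth-muscle-list cells of that library held Ereg at 104 CPM, 1.65-fold above its stellate-list cells (1.22 to 2.17).

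**Figure D3:**
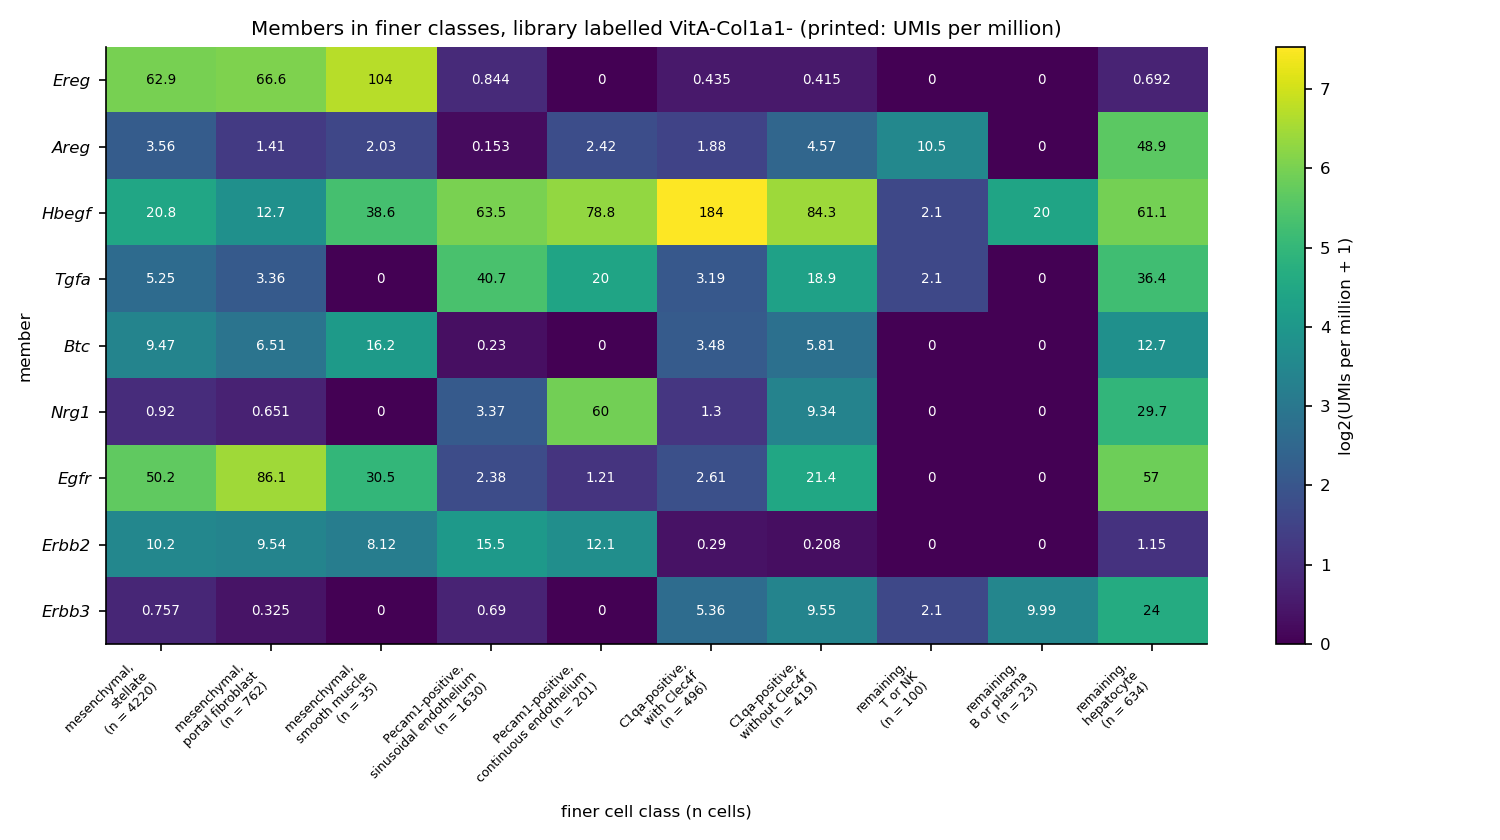
Levels of the 9 genes in finer cell classes of the library labelled VitA-Col1a1-, as colour on a log scale, with the CPM printed in each field, genes in rows and classes in columns. Nrg1 stands out in the continuous-list endothelium at 60.0 CPM, Ereg in the mesenchymal columns, and Areg in the hepatocyte-list cells at 48.9 CPM.

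From cell to cell, Ereg was unevenly held. The 10% of mesenchymal cells with the most Ereg UMIs held 80.2% of them in the VitA+ and 65.7% in the VitA- gate with DEN+WAD, 67.5% and 64.6% in the same gates of chow, and 62.5% in the library labelled VitA-Col1a1-. Up to 44 Ereg UMIs were counted in 1 cell. In VitA+Col1a1+ DEN+WAD, 16.8% of mesenchymal cells had an Ereg UMI where an even spread over UMIs would give 28.4%. Egfr was spread more evenly, with 50.1%, 40.9%, 38.6%, 32.6% and 46.7% of its UMIs in the top 10% of cells in the same order of libraries.

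Btc, Areg and Hbegf were higher in mesenchymal cells that had Ereg in some or most of the libraries. In VitA+Col1a1+ DEN+WAD the Btc level of Ereg-positive over Ereg-negative cells was 2.58-fold (2.11 to 3.14), and it was 1.61-fold in VitA-Col1a1+ DEN+WAD (1.18 to 2.20), 1.76-fold in VitA-Col1a1+ chow (1.02 to 3.07) and 2.02-fold in the library labelled VitA-Col1a1- (1.69 to 2.41). In VitA+Col1a1+ chow the ratio was 3.27 with an interval from 0.704 to 16.5. Areg was 5.12-fold higher in Ereg-positive cells of VitA+Col1a1+ DEN+WAD (3.27 to 8.07) and 4.94-fold higher in those of the library labelled VitA-Col1a1- (3.48 to 7.17), but not beyond the interval in VitA-Col1a1+ DEN+WAD (1.17, 0.589 to 2.27). Hbegf was also higher with Ereg in 4 of 5 libraries, by 1.38-fold (1.18 to 1.61), 1.26-fold (1.05 to 1.51), 1.42-fold (1.14 to 1.76) and 1.48-fold (1.32 to 1.66), and lower in VitA+Col1a1+ chow (0.319, 0.0984 to 0.806). Egfr differed by less, with ratios of 1.31 (1.21 to 1.41) in VitA+Col1a1+ DEN+WAD and 1.13 (1.01 to 1.26) in VitA-Col1a1+ chow, and did not differ beyond its interval in the other 3 libraries. Ereg-positive cells were the deeper ones, with a median of 15204 against 13035.5 UMIs in VitA+Col1a1+ DEN+WAD and 14571 against 9212 UMIs in the library labelled VitA-Col1a1-, and the part of depth in these ratios was not tested.

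DEN+WAD was compared with chow in the VitA+Col1a1+ gate first. No member with a mean of at least 1 CPM reached a 2-fold difference, 0 of 7 higher and 0 of 7 lower, against 2.55% and 6.04% of the 11884 genes at that level. With edgeR's TMM factors in place of total UMIs, Btc passed 2-fold, and all genes divided into 464 higher and 550 lower instead of 303 and 718. Hbegf was lower at 8.89 against 14.5 CPM (0.614, 0.495 to 0.770), Tgfa at 4.40 against 7.16 CPM (0.615, 0.453 to 0.854) and Erbb2 at 6.89 against 12.9 CPM (0.536, 0.426 to 0.683). Egfr was lower by less, at 25.3 against 31.1 CPM (0.814, 0.704 to 0.947). Btc was the member that stood higher beyond its interval, at 2.88 against 1.46 CPM (1.97, 1.03 to 4.33), with 9 UMIs in chow. Ereg, at 23.4 against 20.7 CPM (1.13, 0.95 to 1.36), and Nrg1 (0.666, 0.328 to 1.58) differed by no more than their intervals. Areg gave 111 against 3 UMIs with a ratio of 1.52 (0.506 to 7.47), and Erbb3 35 against 0 UMIs, which at a level under the chow floor allows no fold. The median log2 ratio of the 7 members was -0.59, against -0.08 over all genes.

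Among mesenchymal cells of this gate alone, Erbb2 was at 6.81 against 12.1 CPM (interval of the ratio 0.442 to 0.724) and Egfr at 25.5 against 31.8 CPM (0.693 to 0.933), so both were again lower with DEN+WAD beyond counting error. Hbegf, at 5.79 against 7.75 CPM (0.555 to 1.03), and Tgfa, at 4.12 against 5.73 CPM (0.509 to 1.05), no longer were. Of all genes, 2.7% were at least 2-fold higher and 5.0% at least 2-fold lower in these cells, and no member was among them.

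In the VitA-Col1a1+ gate, Nrg1 was the 1 member of 7 at least 2-fold higher with DEN+WAD (background 5.97%), and 0 of 7 were at least 2-fold lower (background 6.72%). Nrg1 was at 2.06 against 0.867 CPM, or 98 against 13 UMIs (2.37, 1.33 to 4.62), and 1 chow cell held 6 of the 13. Tgfa was at 7.54 against 4.33 CPM (1.74, 1.33 to 2.30) and Hbegf at 42.7 against 35.8 CPM (1.19, 1.08 to 1.31), both higher with DEN+WAD. Without the 5% of barcodes with the most UMIs, the log2 ratio of Hbegf was -0.15. Nrg1, Tgfa and Hbegf all had higher levels in Pecam1-positive than in mesenchymal cells of this gate. Pecam1-positive cells made up 5.69% of this gate in chow and 15.9% with DEN+WAD. Pecam1-positive cells held 53.0% of the Hbegf UMIs in DEN+WAD against 29.4% in chow, 46.8% against 23.1% for Tgfa and 58.2% against 46.2% for Nrg1.

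Within Pecam1-positive cells of this gate, none of the 3 was higher beyond its interval. Hbegf was at 170 CPM with DEN+WAD against 248 CPM in chow, a log2 ratio of -0.55 (ratio interval 0.579 to 0.814). Tgfa was at 26.5 against 23.6 CPM, and Nrg1 at 8.98 against 9.42 CPM (0.412 to 2.71). In mesenchymal cells Hbegf was at 12.1 against 24.6 CPM (0.491, 0.427 to 0.565), the opposite direction to the whole library and the 1 member of 6 past 2-fold lower (background 6.84%), with 0 of 6 higher (background 4.1%). Tgfa was at 3.50 against 3.04 CPM in mesenchymal cells, within its interval (0.813 to 1.66).

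Both receptors with enough UMIs were lower with DEN+WAD in this gate. Egfr was at 46.1 against 86.8 CPM (0.532, 0.496 to 0.570) and Erbb2 at 7.96 against 12.3 CPM (0.649, 0.542 to 0.778). The same held in mesenchymal cells, with Egfr at 53.3 against 90.5 CPM (0.588, 0.549 to 0.631) and Erbb2 at 6.90 against 12.1 CPM (0.571, 0.470 to 0.694). It also held within each mesenchymal list, with Egfr at 44.0 against 65.1 CPM in stellate-list cells (interval 0.590 to 0.774) and at 76.6 against 103 CPM in portal-fibroblast-list cells (0.680 to 0.818). The portal-fibroblast-list cells were 537 of 2212 mesenchymal cells with DEN+WAD and 382 of 615 in chow. Erbb2 was at 6.39 against 13.3 CPM in stellate-list cells (0.352 to 0.664) and at 8.25 against 11.0 CPM in portal-fibroblast-list cells (0.560 to 0.998).

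Ereg was slightly lower in the VitA-Col1a1+ gate over the library but not in mesenchymal cells, at 37.1 against 42.1 CPM (0.880, 0.803 to 0.965) and at 43.4 against 44.7 CPM (interval 0.887 to 1.07). In stellate-list cells it was at 46.0 against 56.3 CPM (0.708 to 0.944). Hbegf in those cells was at 11.7 against 39.2 CPM (0.299, 0.247 to 0.364), its lowest ratio among the classes compared in this gate, and at 12.6 against 16.2 CPM in portal-fibroblast-list cells (0.616 to 0.985). Btc did not differ beyond its interval (0.939, 0.701 to 1.27), nor did Erbb3 (0.918, 0.465 to 1.94). Areg gave 45 against 4 UMIs (3.54, 1.29 to 13.6), at a mean under 1 CPM. The median log2 ratio of the 7 members was -0.09, against -0.03 over all genes.

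**Figure D4:**
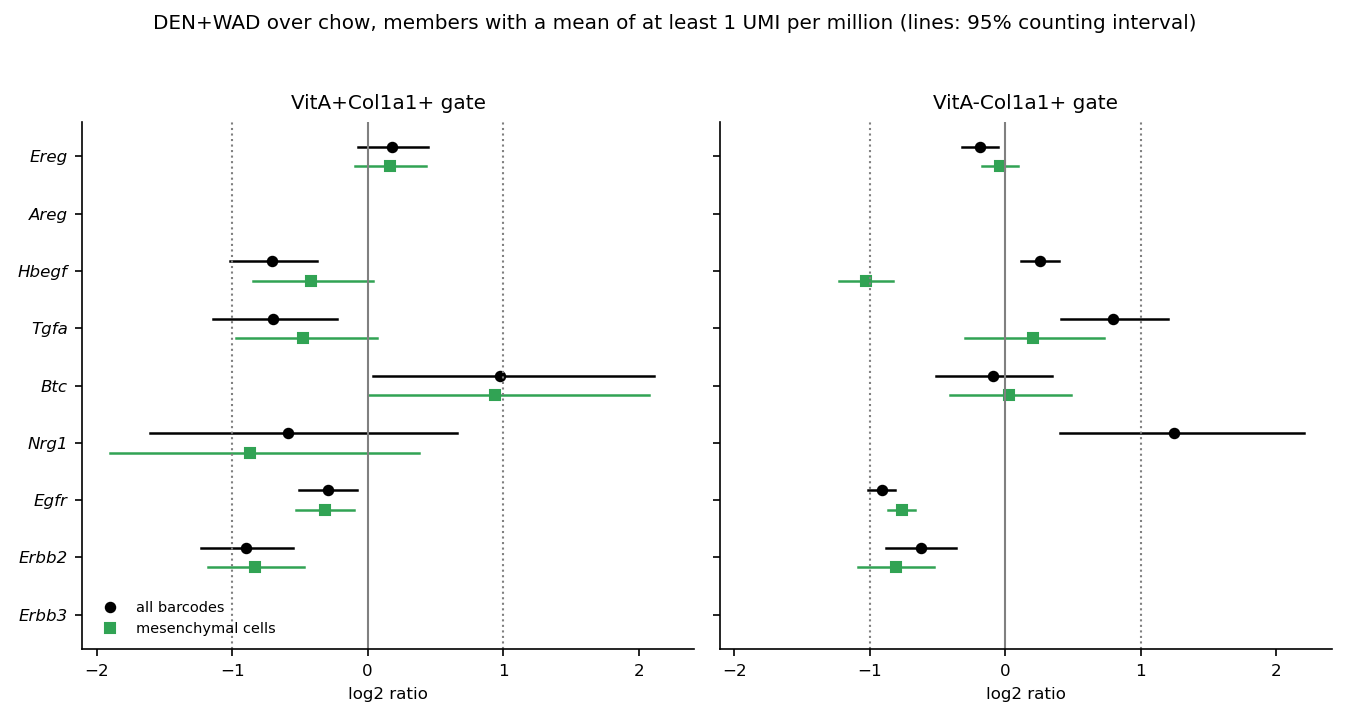
Ratio of DEN+WAD to chow for each gene in each Col1a1+ gate, on a log2 axis, over all barcodes and over mesenchymal cells, with 95% counting intervals as bars and no point for genes with a mean under 1 CPM. Erbb2 and Egfr lie below 1 in both gates, while Hbegf in the VitA-Col1a1+ gate is above 1 over all barcodes (1.19) and below 1 in mesenchymal cells (0.491).

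Each gate's ratio was then set against the other's, as the log2 ratio in VitA-Col1a1+ minus that in VitA+Col1a1+. Over whole libraries, 4 of the 5 members with enough UMIs differed beyond the counting interval. The differences were -0.37 for Ereg (-0.65 to -0.08), 0.96 for Hbegf (0.62 to 1.30), 1.5 for Tgfa (0.92 to 2.08) and -0.62 for Egfr (-0.85 to -0.38), while that of Erbb2 was 0.27 (-0.14 to 0.69). In mesenchymal cells alone, Hbegf turned to -0.61 (-1.08 to -0.14) and Egfr was at -0.45 (-0.68 to -0.21). The intervals of Ereg (-0.20), Tgfa (0.68) and Erbb2 (0.02) included 0 there. Egfr thus had the lower ratio in the VitA- gate over all barcodes and over mesenchymal cells alike, whereas Hbegf changed sides between these counts.

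Between the gates of DEN+WAD livers, 2 of 7 members were at least 2-fold higher in VitA-Col1a1+ than in VitA+Col1a1+ (background 12.7%) and 0 of 7 were lower (background 1.79%). Hbegf was at 42.7 against 8.89 CPM (4.8, 4.48 to 5.15) and Nrg1 at 2.06 against 0.867 CPM (2.37, 1.81 to 3.11). Egfr (1.82, 1.73 to 1.92), Tgfa (1.71, 1.5 to 1.95) and Ereg (1.58, 1.49 to 1.68) were higher by less. In mesenchymal cells, Hbegf (2.09, 1.86 to 2.33) and Egfr (2.09, 1.98 to 2.20) were the 2 of 6 members past 2-fold (background 9.57%), and 0 of 6 were past 2-fold lower (background 1.86%). Ereg was 1.83-fold higher there (1.73 to 1.94), whereas Tgfa (0.850, 0.703 to 1.02) and Erbb2 (1.01, 0.885 to 1.16) were not. In stellate-list cells Ereg was 1.98-fold, Hbegf 2.05-fold and Egfr 1.74-fold higher in the VitA- gate.

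Between the gates of chow livers, 4 of 7 members were at least 2-fold higher in VitA-Col1a1+ (background 14.1%) and 0 of 7 lower (background 6.53%). Ereg was at 42.1 against 20.7 CPM (2.04, 1.68 to 2.49), Egfr at 86.8 against 31.1 CPM (2.79, 2.40 to 3.27), Hbegf at 35.8 against 14.5 CPM (2.47, 1.97 to 3.13) and Btc at 4.13 against 1.46 CPM (2.82, 1.40 to 6.46). The same 4 of 6 were past 2-fold in mesenchymal cells (background 14.4%), with Egfr 2.84-fold (2.44 to 3.33) and Hbegf 3.18-fold (2.33 to 4.42) higher, and 0 of 6 were past 2-fold lower (background 7.79%). Tgfa went the other way over the libraries, at 4.33 against 7.16 CPM (0.605, 0.407 to 0.909), and Erbb2 did not differ beyond its interval (0.954, 0.729 to 1.26). Erbb3 gave 12 against 0 UMIs, and the exact interval of the ratio starts at 1.14. In cells with less stress RNA, 2 of 7 were past 2-fold higher (Btc and Egfr, background 13.65%) and 2 past 2-fold lower (Tgfa and Nrg1, background 9.01%). The summed portal fibroblast list was 5511 CPM in mesenchymal cells of VitA-Col1a1+ chow and 24.8 CPM in those of VitA+Col1a1+ chow. Its part in these ratios was not tested. Comparisons that share a library are not independent of each other.

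**Figure D5:**
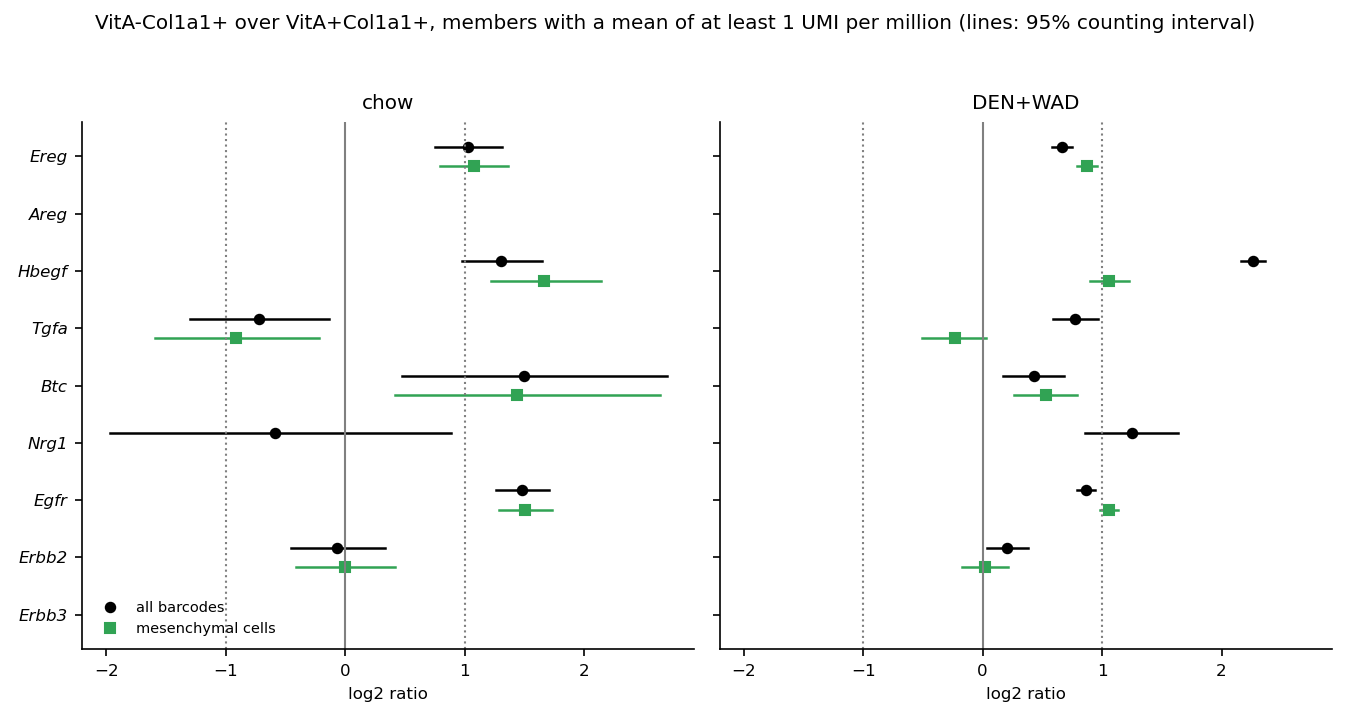
Ratio of VitA-Col1a1+ to VitA+Col1a1+ for each gene in DEN+WAD and in chow livers, on a log2 axis, over all barcodes and over mesenchymal cells, with 95% counting intervals as bars and no point for genes with a mean under 1 CPM. Egfr, Ereg and Hbegf lie above 1 in both, with Egfr at 1.82 with DEN+WAD and 2.79 in chow.

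The mesenchymal cells of the library labelled VitA-Col1a1- were also set beside those of VitA-Col1a1+ DEN+WAD. Ereg was at 63.9 against 43.4 CPM (1.47, 1.39 to 1.56), Btc at 9.0 against 4.19 CPM (2.15, 1.80 to 2.57) and Areg at 3.24 against 1.01 CPM (3.20, 2.28 to 4.61). Hbegf (1.63, 1.46 to 1.81), Tgfa (1.41, 1.15 to 1.73), Erbb2 (1.46, 1.27 to 1.69) and Erbb3 (40 against 10 UMIs) were also higher in the library labelled VitA-Col1a1-. Its mesenchymal cells with 0 UMIs of Pecam1, C1qa and Epcam held Tgfa at 3.41 CPM. All mesenchymal cells of VitA-Col1a1+ DEN+WAD held it at 3.50 CPM, and the other members named as higher stayed above that library. Without the 5% of barcodes with the most UMIs Hbegf was at 13.5 CPM, against 12.1 CPM in all those of VitA-Col1a1+ DEN+WAD. Egfr (1.05, 0.994 to 1.11) and Nrg1 (0.993, 0.637 to 1.56) did not differ beyond their intervals. In the library labelled VitA-Col1a1-, the mesenchymal cell with the most held 38 of 191 UMIs for Areg, 42 of 531 for Btc and 170 of 1159 for Hbegf. Its mesenchymal cells also held Alb at 464 and C1qa at 121 CPM, against 6.56 and 0.0986 CPM in those of VitA-Col1a1+ DEN+WAD. The part of single cells and of this RNA in the ratios was not tested.

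Dissociation and stress genes, among them immediate-early and heat shock genes, stood unevenly across the libraries, and early response ligands are known to be induced alongside them in many cells. The summed list of 13 genes was at 33204 CPM in the VitA+ and 24174 CPM in the VitA- gate with DEN+WAD, at 37567 and 17015 CPM in the same gates of chow and 15086 CPM in the library labelled VitA-Col1a1-. In the VitA-Col1a1+ gate, 4 of the 13 (Hspa1a, Hspa1b, Dnajb1 and Hsp90aa1) were at least 2-fold higher with DEN+WAD, against 5.97% of all genes, and in the VitA+Col1a1+ gate 0 were, against 2.55%. Within libraries, mesenchymal cells above the median of the list held less Btc, Nrg1 and Egfr in all 5, although beyond the interval only in 2 libraries for each. For Btc and Nrg1 these were VitA+Col1a1+ DEN+WAD (0.669 and 0.462) and the library labelled VitA-Col1a1- (0.760 and 0.469), and for Egfr both Col1a1+ libraries of DEN+WAD (0.760 and 0.768). Ereg had no common direction. Mesenchymal cells above the median of the list held less Ereg in VitA+Col1a1+ DEN+WAD, at 17.2 against 29.8 CPM, and in VitA-Col1a1+ DEN+WAD (0.752, 0.684 to 0.828). They held 1.33-fold more in VitA-Col1a1+ chow. Ereg did not differ beyond the interval in VitA+Col1a1+ chow (0.939) or in the library labelled VitA-Col1a1- (0.997). Areg was lower in such cells of VitA+Col1a1+ DEN+WAD (0.173) and of the library labelled VitA-Col1a1- (0.248), and not beyond the interval elsewhere. Hbegf was lower in the cells with more stress RNA of VitA+Col1a1+ chow, at 2.36 against 13.1 CPM (0.180, 0.0678 to 0.406), and in those of the library labelled VitA-Col1a1- (0.573). The part of this RNA in the differences between libraries was not tested.

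The other 48 genes of the pathway were counted by the same rule. In the VitA+Col1a1+ gate, 1 of 41 genes with a mean of at least 1 CPM was at least 2-fold higher with DEN+WAD and 0 were at least 2-fold lower, against 2.55% and 6.04% of all genes. The gene was Fosl1, a transcription factor induced by ERK signalling, at 4.23 against 1.63 CPM (2.60, 1.40 to 5.45). The next largest ratios were those of Timp3, an inhibitor of shedding proteases, at 778 against 543 CPM (1.43), and Lrig1, an inhibitor of the receptors, at 3.39 against 2.44 CPM (1.39, 0.835 to 2.50). The lowest belonged to the ERK feedback genes Spry2, at 93.2 against 163 CPM (0.571, 0.536 to 0.610), and Spred2, at 52.7 against 81.2 CPM (0.649), and to the transcription factor Etv5, at 9.86 against 16.6 CPM (0.594).

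In the VitA-Col1a1+ gate, 0 of 42 pathway genes were at least 2-fold higher with DEN+WAD and 3 were at least 2-fold lower, against 5.97% and 6.72% of all genes. Lrig1 was at 8.84 against 18.7 CPM (0.473, 0.406 to 0.553), Socs5, which promotes degradation of the EGF receptor, at 26.0 against 72.2 CPM (0.360, 0.332 to 0.391), and Spry2 at 142 against 305 CPM (0.466, 0.449 to 0.484). The highest ratios were those of Dusp6, a phosphatase of ERK, at 91.7 against 48.2 CPM (1.90), Ier3, at 303 against 163 CPM (1.86), and Dusp5, another ERK phosphatase, at 140 against 75.3 CPM (1.85). The genes that follow ERK activity thus stood on both sides in this gate, with 0 of 14 past 2-fold higher and 1 lower. None of the 5 shedding genes and none of the 12 adaptor and relay genes was past 2-fold in either gate. The median log2 ratio of the pathway genes was -0.12 in the VitA+Col1a1+ gate and -0.06 in the VitA-Col1a1+ gate.

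Of the remaining ligands and the fourth receptor, none reached 2 CPM in any library. Egf was at 0.347, 0.399, 0.163, 0.133 and 0.502 CPM in the order used above, and Nrg2 at 0.434, 1.13, 0.488, 1.40 and 0.379 CPM, higher in both VitA-Col1a1+ libraries. Nrg4 reached 1.62 CPM in the library labelled VitA-Col1a1-, where its level in Epcam-positive cells was 15.5 CPM from 21 UMIs. Erbb4 was at 0.180 CPM in that library and at 11.1 CPM in its Epcam-positive cells, from 15 UMIs, with 0 UMIs in the other 3 classes. Epgn, the fourth gene of the chromosome 5 cluster, stayed at or under 0.200 CPM everywhere, and Nrg3 had 0 UMIs in all 5 libraries.

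The genes with the pattern most like each member were found over the 10 groups of library and class with at least 50 cells, by Pearson's r of log2(CPM + 1) among 10709 genes. The groups share libraries, depth and class rules, so r describes the match only. Ereg was most like Col1a2 (0.996), Col3a1 (0.994) and Myl9 (0.993), all expressed by contractile or collagen-producing cells, and Col3a1 entered the mesenchymal rule. Egfr was most like Sdc2, a heparan sulphate proteoglycan, with r = 0.982, then Kdelr3 (0.981) and Pir (0.980). Tgfa was most like Adipor2 (0.983), and its next match was the member Nrg1 (0.978). The closest genes were Mrps10 for Areg (0.969), Abcb8 for Hbegf (0.986), Cdk5rap3 for Btc (0.995), Rbbp8 for Nrg1 (0.986), Snx33 for Erbb2 (0.995) and Acat3 for Erbb3 (0.997).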

How the data were processed

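Sorted mouse liver cells were loaded by the authors on 10x Genomics chips, aiming at 10000 cells per library. The labels give both v3.1 and v2 for the 3′ kit. The authors aligned reads to mm10 and counted with Cell Ranger 3.1.0 per the submitters' processing notes, although 1 of the 5 file headers gives 6.1.2, that of the library labelled VitA-Col1a1-. What was deposited were raw counts of UMIs per gene and barcode, with no barcode under 500 UMIs. Every barcode was used and no doublet caller was run. Non-mesenchymal barcodes with more than 1 of Pecam1, C1qa and Epcam were kept out of the classes. Mesenchymal cells were kept whatever they held of these genes. In the library labelled VitA-Col1a1-, 3613 of the 5196 mesenchymal cells had 0 UMIs of the 3 genes. These held Hbegf at 15.9, Tgfa at 3.41 and Nrg1 at 0.341 CPM, against 19.7, 4.93 and 0.882 CPM in all 5196. The other members were higher in them than in all mesenchymal cells. Groups came from the labels alone.

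Counts were summed per library or class and divided by the total (CPM). Exact Poisson intervals were given to levels, conditional binomial intervals to ratios and Clopper-Pearson intervals to shares. The difference between gates was given a normal approximation. No test was run, since no group had more than 1 library and cells cannot stand in for replicates. A 2-fold rule was applied at a mean of at least 1 CPM, with 0 UMIs set to 3. For shares, each cell was thinned to 2000 UMIs and shallower cells were left out (172 in the VitA+ and 106 in the VitA- gate with DEN+WAD, 4 and 21 in the same gates of chow, 1439 in the library labelled VitA-Col1a1-). The 2-fold rule and the intervals of ratios, but not the thinning, were tested on simulated counts of whole libraries.

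All 9 members were named in the levels by library and by class and in DEN+WAD against chow. Other comparisons name a part of them. Of the pathway list, the 3 largest ratios in each direction in each gate and every further ERBB ligand and receptor were named, and for each member the genes most alike, by correlation. The members and lists were chosen with earlier results of these data known. Genes were located in GENCODE M21 (30934 of 31053 identifiers found). Scaling factors from edgeR 4.0.16 (TMM) and DESeq2 1.42.0 in R 4.3.3 were alternatives. Other work used Python 3.11.15, numpy 2.4.6, scipy 1.17.1, pandas 2.3.3 and matplotlib 3.10.9, with random seed 7. The study's bulk tissue data were left out.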

Additional observations from a re-analysis of the deposited data

Results flagged for a closer look

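The ratio of DEN+WAD to chow pointed in opposite directions in the 2 Col1a1+ gates for 3 ligands over whole libraries. The difference on the log2 scale (VitA-Col1a1+ minus VitA+Col1a1+) was -0.3652 for Ereg, 0.9579 for Hbegf and 1.5 for Tgfa. With 1 library per group these differences were not tested. In mesenchymal cells that of Hbegf was -0.61 (-1.08 to -0.14).

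Areg was at 40.73 CPM in the barcodes of the library labelled VitA-Col1a1- that carried none of the class genes, outside the classes compared, with 217 of the 483 Areg UMIs of that library.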

How the results depend on the processing

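No paired analysis was possible because each group held 1 library, and no library could be left out for the same reason. Of 248 log2 ratios of members under an alternative, 213 kept to within their counting interval, 35 moved and 0 reversed a difference past 2-fold, although 8 that were not past it changed sign, among them Hbegf in the VitA- gate (-1.03 in mesenchymal cells, -0.15 without the 5% of barcodes with the most UMIs) and Ereg (-0.10 in the VitA+ gate as a mean over cells, 0.17 in the VitA- gate in cells with less stress RNA). TMM or DESeq2 factors turned no member's direction. They moved the median log2 ratio of all genes, by TMM from -0.08 to 0.11 for DEN+WAD against chow in the VitA+ gate and from 0.11 to -0.10 between the gates of DEN+WAD livers. The cause of the changes below was not tested, except where fewer cells, fewer genes or another threshold made them.

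For DEN+WAD against chow in the VitA+ gate, the count of members at least 2-fold higher went from 0 to 1 (Btc) by TMM, by DESeq2, as a mean over cells and at 1.5-fold, and that of lower members from 0 to 1 (Hbegf) in cells with less stress RNA and to 4 at 1.5-fold. In the VitA- gate, the higher count went from 1 to 0 in mesenchymal cells, as a mean over cells, at 3-fold and among genes over 10 CPM, and to 2 in cells with less stress RNA, at 1.5-fold and among all genes with a UMI, while the lower count went from 0 to 1 in mesenchymal cells (Hbegf) and 2 at 1.5-fold. Between the gates of DEN+WAD livers, the count of 2 became 1 as a mean over cells, at 3-fold and over 10 CPM, and 5 at 1.5-fold. Between those of chow livers, 4 became 2 in cells with less stress RNA and 0 at 3-fold. Differences between gates beyond their interval went from 4 to 2 in mesenchymal cells, an alternative chosen after seeing the data. The number of members highest in mesenchymal cells was 2 to 3. Depth limits Areg most, with 3 and 4 UMIs in the chow libraries, and Erbb3, with 0 and 12.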
